A study of Mus musculus with 70 samples.

Results

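Activins are secreted dimers of the inhibin beta subunits encoded by Inhba and Inhbb, and the genes described here are those 2 ligand genes, the inhibin alpha gene Inha, follistatin (Fst), the follistatin-like gene Fstl1 and the activin receptor genes Acvr1, Acvr1c, Acvr2a and Acvr2b. They were chosen by name, as every probe of the 9 gene symbols on the array, with earlier results of these data known. Each symbol had 1 probe, so 9 of the 25697 probes in the table belong to them. All 9 passed the filter on dim probes, which 17616 probes passed. For Inhba and Acvr1c the filter was met mostly by injured samples, since their probes were above background on 4 and 2 of 35 naive arrays and on 26 and 35 of 35 axotomy arrays. No count over the 9 genes is therefore read as evidence about the family.

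Activin binds a type 2 receptor, Acvr2a or Acvr2b, which then recruits and activates a type 1 receptor, and the activated type 1 receptor phosphorylates Smad2 and Smad3, which enter the nucleus with Smad4. Follistatin binds activin outside the cell and keeps it from its receptors, so the amount of ligand that can signal depends on both. Activin signalling is known for roles in inflammation, wound repair and the growth and gene expression of sensory neurons.

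Total RNA came from mouse dorsal root ganglia, in which the cell bodies of sensory neurons sit next to the spinal cord, and was hybridised as biotinylated cRNA to Illumina arrays. The 9 strains carry the labels 129, AJ, C3H, C57 and CAST, then DBA, NOD and NZO, and last WSB, and no age, sex or substrain is given in the labels. Each sample pooled 6 ganglia of 3 mice, either uninjured (NAIVE) or injured (AX5D, taken to mean 5 days after axotomy, which severs the axons), with no further agent or allele named. There were 4 replicates per strain and treatment, called biologically distinct in the labels, and 3 per treatment in AJ, where the series design names 2 arrays as technical outliers that were not used here. Levels are on the log2 scale after background correction and quantile normalization. A difference was called when its adjusted p-value was below 0.05 (limma, Benjamini-Hochberg adjustment over the 17616 probes). An SE is the standard error of that fit, except for the balance of ligand to follistatin.

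The probes above background numbered 13147 to 14721 per array, and array medians lay between 253 and 392 intensity units. How precise a value is depends on the number of arrays behind it. As a check of the injury labels, Sprr1a (5.76), Atf3 (5.56), Gal (4.67) and Gap43 (1.35), which sensory neurons are known to raise after axon injury, were all higher after axotomy in the mean of the 9 strains. An F-test over the strains called a difference in this response for Atf3 (adjusted p 8.56e-05) and Gal (6.35e-06), 2 of 4 against 14.3% of all probes. In CAST the Sprr1a response was smaller than the mean of the other strains (-1.03, adjusted p 0.0433), 1 of 4 against 6.9% of all probes. Of the 7 measured sensory neuron markers, 2 were higher and 4 lower after axotomy, with a median difference of -0.08, and none was at background throughout. These and the following marker counts stand beside 26.4% of all probes called higher and 33% called lower. All 4 measured macrophage markers of 6 listed were higher (median 2.33), with a summed linear level of 599 to 1602 in naive and 3185 to 8000 in axotomy samples. All 4 fibroblast markers were higher too (median 0.55), with sums of 10307 to 32323 and 14830 to 40376. Satellite glia had 1 of 3 measured markers higher, Schwann cells 1 of 2 lower and endothelium 0 of 3 called. Of the endothelial markers, Cdh5 and Kdr were above background on only 4 and 5 of 35 naive and 11 and 7 of 35 axotomy arrays. The 4 skeletal muscle markers, for which 0 were called, ranged in their sum from 179 to 10502 in naive and from 206 to 7379 in axotomy samples. Among them, Myh4 and Ckm were above background on only 3 and 7 naive and 1 and 6 axotomy arrays. The part of these cell types in the results below was not tested, and in a whole ganglion a change in the number of cells of a type and a change in RNA per cell cannot be told apart.

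In the mean over the 9 strains, Fst, Inhbb, Acvr1c, Acvr1 and Inhba were higher after axotomy and Fstl1, Inha, Acvr2a and Acvr2b were lower. The largest rise was that of Fst, by 4.12 (17.4-fold), followed by Inhbb with 2.69 (6.44-fold). All 9 genes were thus called, 5 higher and 4 lower, in a comparison that called 59.5% of all probes tested, 26.4% higher and 33% lower. The median difference of the 9 was 0.91, and that of all probes was -0.04. For Inhbb, Fst and Acvr1 no naive array reached the lowest axotomy array across all strains, a pattern found higher for 1.24% and lower for 0.573% of all probes. Inhbb, Fst, Acvr1 and Acvr1c were called higher in each of the 9 strains, as were 3.89% of all probes.

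**Figure D1:**
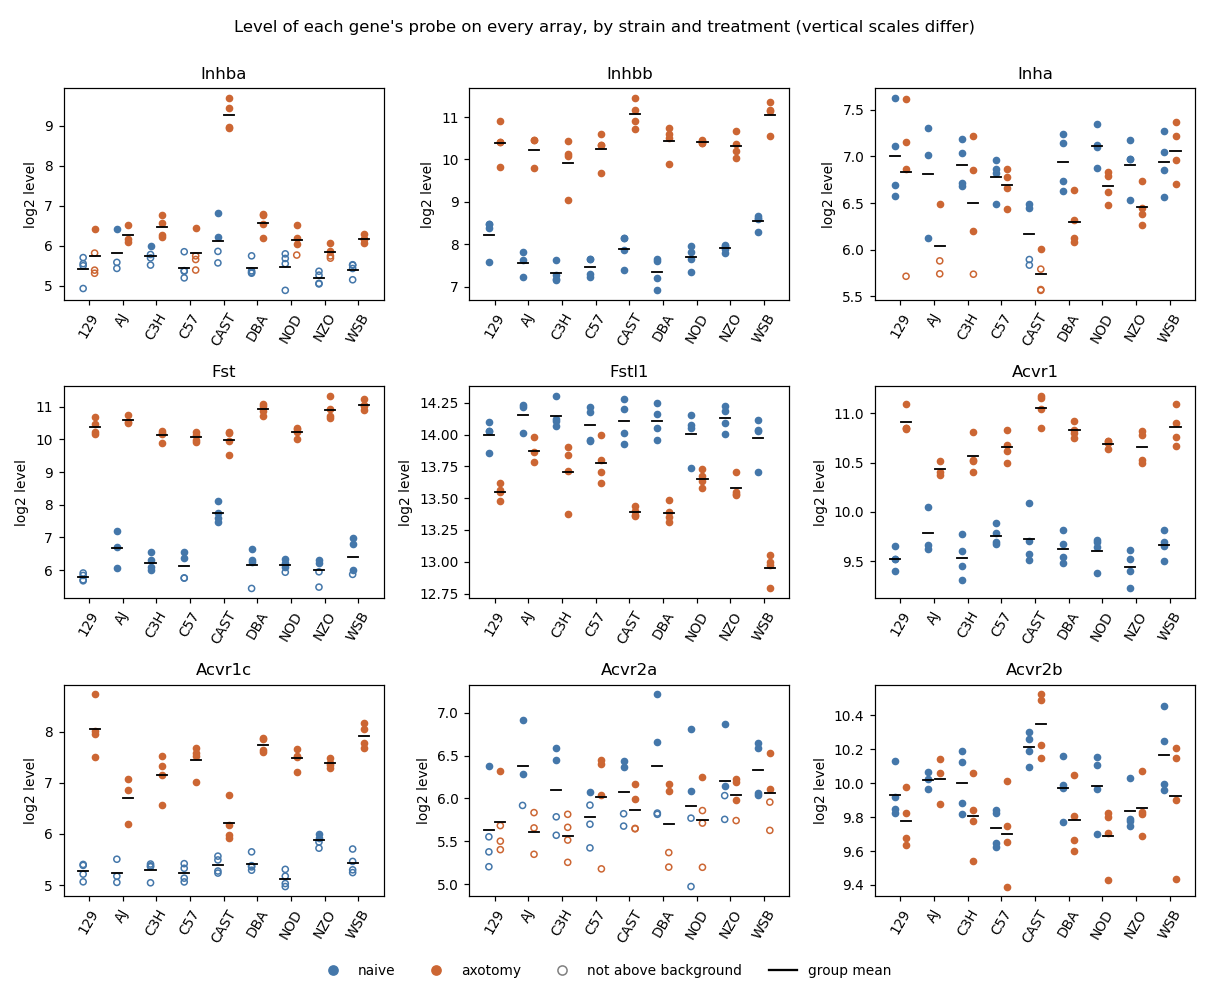
Level (log2) of each gene's probe on every array, by strain, with naive samples in blue, axotomy samples in orange, open points for arrays on which the probe was not above background and black lines for group means. The CAST axotomy samples stand alone for Inhba, between 8.95 and 9.70, and Fst, Inhbb and Acvr1 separate naive from axotomy arrays in every strain.

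Inhba encodes the beta A subunit, which as a homodimer forms activin A. Its promoter is shown with that of Inhbb, the other ligand gene. The sequences are the 250 bases before the annotated start of each gene in RefSeq (build GRCm38.p6), on the strand of the gene, at chr13:16011601-16011850 (plus strand) for Inhba and chr1:119422249-119422498 (minus strand) for Inhbb, and capitals mark the letters TATAAA.
Inhba: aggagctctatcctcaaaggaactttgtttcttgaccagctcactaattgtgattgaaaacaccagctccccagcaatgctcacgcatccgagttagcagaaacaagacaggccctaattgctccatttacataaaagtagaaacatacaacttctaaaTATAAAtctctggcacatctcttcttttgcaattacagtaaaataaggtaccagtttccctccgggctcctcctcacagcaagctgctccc
Inhbb: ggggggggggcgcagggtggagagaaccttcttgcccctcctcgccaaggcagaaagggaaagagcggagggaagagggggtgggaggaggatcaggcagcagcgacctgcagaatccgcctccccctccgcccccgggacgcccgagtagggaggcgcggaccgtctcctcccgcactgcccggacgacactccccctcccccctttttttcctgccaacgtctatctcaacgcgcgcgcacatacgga
G and C made up 43.2% of the Inhba window, which held 3 CG dinucleotides, and 79.9% of the 32851 promoter windows in the table had a higher G and C share. The Inhbb window was at 68% with 21 CG dinucleotides, and 11.6% of windows were higher. Searched on both strands, TATAAA was found once in the Inhba window, starting 91 bases before the start, and in 12.4% of all windows. The letters TGANTCA (AP-1), TGACGTCA (cyclic AMP response element) and CAGACA (Smad) were in none of the windows of the 8 genes with an entry, against 6.75%, 1.55% and 17.1% of all windows. A match or its lack describes these letters only.

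The change of Inhba after injury was set apart by 1 strain. In CAST, Inhba stood at 9.46, 8.96, 8.95 and 9.70 on the axotomy arrays and at 6.22, 6.81, 5.86 and 5.57 on the naive arrays. It was above background on 2 of these 4 naive arrays, so the size of the CAST rise depends on where background lies. Every CAST axotomy array lay above every other array of the study, and the next group, DBA after axotomy, reached 6.80 at most. The rise in CAST was 3.15 (SE 0.23, 8.90-fold), against 1.13 (SE 0.23) in DBA, where the axotomy arrays read 6.19, 6.75, 6.53 and 6.80 and the naive arrays 5.33, 5.74, 5.31 and 5.37. The 2 DBA groups did not overlap, and because no naive DBA array was above background the DBA rise is given as at least 1.52-fold (adjusted p 6.54e-05).

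Rises of Inhba were also called in WSB, C3H, NZO and NOD. In WSB, NZO and NOD no naive array was above background, so the fitted differences there are not sizes. In WSB the axotomy arrays read 6.16, 6.29, 6.17 and 6.06, all above the naive arrays at 5.14, 5.51, 5.52 and 5.43, a rise of at least 1.17-fold. In NOD the axotomy arrays read 6.52, 6.20, 6.03 and 5.76 and the naive arrays 5.68, 5.79, 4.88 and 5.55, which overlap, with a rise of at least 1.16-fold. C3H stood at 6.57, 6.77, 6.27 and 6.22 after axotomy and at 5.69, 5.78, 6.00 and 5.51 before, without overlap, a difference of 0.71 with 1 naive array above background. NZO read 5.74, 6.06, 5.69 and 5.87 against 5.05, 5.36, 5.26 and 5.04, also without overlap, but 0 of its naive arrays and only 2 of its axotomy arrays were above background, so no fold is given. The calls in C3H, NOD and NZO ended without background correction (adjusted p 0.0737, 0.0768 and 0.0616) and, for NZO, with median scaling (0.0951), as when single arrays were left out. For C3H these were axotomy replicate 2 (0.0768) and naive replicate 4 (0.0598). For NOD they were axotomy replicates 1 and 2 (0.142 and 0.0689) and naive replicate 3 (0.207), and for NZO axotomy replicates 2 and 4 (0.0865 and 0.0523) and naive replicates 1 and 4 (0.0671 and 0.0721).

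In AJ, C57 and 129 the difference of Inhba did not pass (0.45, 0.36 and 0.31, with adjusted p-values of 0.281, 0.313 and 0.353). The AJ arrays read 6.53, 6.09 and 6.16 after axotomy against 5.58, 5.43 and 6.41 in naive ganglia. In C57 they were 5.65, 5.39, 5.74 and 6.43 against 5.85, 5.37, 5.19 and 5.36, and in 129 they were 5.38, 6.41, 5.81 and 5.31 against 4.93, 5.50, 5.55 and 5.70. All 3 pairs of groups overlapped, and in C57 and 129 0 naive and only 1 of 4 axotomy arrays were above background.

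Inhbb encodes the beta B subunit of activin B. Its rise ran from 4.48-fold to 9.06-fold over the strains. The smallest was 2.16 (SE 0.23, 4.48-fold) in 129, with axotomy arrays at 10.42, 10.90, 9.81 and 10.41 and naive arrays at 8.47, 8.38, 7.58 and 8.47. The largest was 3.18 (SE 0.23, 9.06-fold) in CAST, from 8.16, 7.39, 8.15 and 7.86 to 10.72, 11.18, 11.45 and 10.92. The other rises were 3.10 in DBA, 2.78 in C57, 2.73 in NOD, 2.68 in AJ, 2.62 in C3H, 2.52 in WSB and 2.42 in NZO. The F-test of a strain difference in the response did not call Inhbb (adjusted p 0.232), but did without 2 runs of neighbouring table columns (0.00952). In that fit the response was below the other strains in 129 (-0.88, adjusted p 0.00917) and above them in DBA (0.71, 0.0417). The 2 runs were chosen after seeing the data, and they held the lowest naive 129 array (7.58). These calls are therefore not read as a strain difference in the response. Levels themselves differed, with WSB at 11.15, 11.37, 10.57 and 11.16 after axotomy and at 8.60, 8.62, 8.28 and 8.65 before. CAST (mean 11.07, SD 0.32) and WSB (11.06, SD 0.35) led the order after axotomy, 0.62 above DBA (10.44, SD 0.37), while each of the other neighbouring means lay within the larger of their SDs.

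Inha encodes the alpha subunit, which pairs with a beta subunit to form inhibin, an antagonist of activin. It was 0.36 lower after axotomy in the mean over strains (SE 0.09, adjusted p 3.26e-04) but was called in 0 of 9 single strains. The strain values ran from -0.78 in AJ (adjusted p 0.0693) to 0.13 in WSB (adjusted p 0.761). AJ was called with array weights (0.0188) and with a block for runs of neighbouring table columns (0.0311). DBA (-0.64, 0.0556) was called with these as well (0.0345 and 0.0267). In CAST the probe was near background, at 5.83, 6.45, 5.89 and 6.49 in naive and 6.01, 5.56, 5.57 and 5.79 in axotomy samples, above background on 2 and 1 of 4 arrays. The F-test did not call a strain difference in its response (adjusted p 0.649).

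Fst, the gene of follistatin, rose in all 9 strains, and least in CAST. There it stood at 7.75, 7.59, 7.47 and 8.12 in naive and at 10.22, 10.19, 9.96 and 9.52 in axotomy samples, a rise of 2.24 (SE 0.21, 4.72-fold). Each naive CAST array lay above each of the other 31 naive arrays, of which the highest was AJ at 7.21. In NZO, with the largest rise (4.93, SE 0.21, 30.4-fold), Fst went from 6.31, 5.48, 5.95 and 6.21 to 11.33, 10.66, 10.92 and 10.73. In 129 none of the naive arrays (5.70, 5.91, 5.83 and 5.67) had it above background, and it stood at 10.24, 10.48, 10.16 and 10.68 after axotomy, a rise of at least 21.3-fold. Rises were 4.76 in DBA, 4.65 in WSB, 4.09 in NOD, 3.95 in C57, 3.93 in AJ and 3.90 in C3H, and in none of the 9 strains did the naive and axotomy arrays overlap. Only 24 of the 35 naive arrays had an Fst signal above background, and how large a rise appears depends on where that limit lies.

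Over all 9 strains, levels of Fst after axotomy were closer together than its rises (2.24 to 4.93). WSB (11.05, SD 0.15), DBA (10.92, SD 0.17) and NZO (10.91, SD 0.30) were highest, and CAST (9.97, SD 0.32) was lowest, next to C57 (10.06, SD 0.14) and C3H (10.13, SD 0.16). Of the 8 steps in this order only the one from NZO to AJ (10.59, SD 0.13) exceeded the larger SD of its 2 groups. Outside CAST the levels (10.06 to 11.05) and the rises (3.90 to 4.93) were about equally spread.

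Fstl1 encodes a secreted glycoprotein with a follistatin-like domain. It was bright on every array, with naive samples between 13.71 and 14.30 (median 14.07) and axotomy samples between 12.79 and 14.00 (median 13.55). Unlike Fst, it fell, by 0.53 in the mean over strains (SE 0.03, adjusted p 3.56e-24), and it was called lower in 8 of 9 strains. The largest fall was in WSB (-1.02, SE 0.09, 2.02-fold lower), where axotomy arrays read 12.97, 13.05, 12.79 and 12.99 and naive arrays 14.11, 14.02, 13.71 and 14.04. In AJ the difference was -0.28 and did not pass (adjusted p 0.0577). It did with array weights (0.00808) and with a block for runs of neighbouring table columns (0.0265). A stricter detection p (0.0497) and the AJ arrays alone (0.0484) also brought the difference below the threshold. In C57 it was -0.30, and that call was lost without axotomy replicate 1 (adjusted p 0.0737) and without naive replicate 1 (0.0536) or 4 (0.063).

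Acvr1c encodes a type 1 receptor known as ALK7, which serves activin B, activin AB and related ligands. Its probe was above background on 0 naive arrays outside NZO and on every axotomy array. In 129, which showed the largest rise (2.78, SE 0.19, at least 4.20-fold), the axotomy arrays read 7.95, 8.73, 7.51 and 8.0 and the naive arrays 5.22, 5.07, 5.39 and 5.40. In CAST, with the smallest rise (0.82, SE 0.19, at least 1.16-fold), they read 5.98, 6.76, 6.17 and 5.93 against 5.28, 5.57, 5.24 and 5.49. The groups did not overlap in either strain. Bounds in the other strains were at least 3.92-fold in WSB, 3.42-fold in DBA, 2.96-fold in NOD, 2.87-fold in C57, 2.34-fold in C3H and 1.72-fold in AJ. NZO, with naive arrays at 6.01, 5.84, 5.72 and 5.92, of which 2 were above background, rose by 1.51 (SE 0.19) to 7.39, 7.48, 7.29 and 7.35.

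Acvr1 encodes the type 1 receptor ALK2, which serves mainly bone morphogenetic proteins and also binds activin. It rose by 1.11 in the mean over strains (SE 0.04, 2.16-fold). Naive arrays lay between 9.22 and 10.09 (median 9.64) and axotomy arrays between 10.37 and 11.18 (median 10.76). The rise was largest in 129 (1.39, SE 0.11) and smallest in AJ (0.65, SE 0.13), where naive arrays read 10.05, 9.67 and 9.62 and axotomy arrays 10.37, 10.41 and 10.52.

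The 2 type 2 receptor genes changed little. Acvr2b, above background on all 70 arrays, ranged from 9.62 to 10.46 in naive and from 9.39 to 10.53 in axotomy samples, and was 0.11 lower in the mean (SE 0.04, adjusted p 0.0379). Leaving out any one of 19 arrays ended that call (highest adjusted p 0.0683, without WSB axotomy replicate 1), as did leaving out strain 129, C3H, DBA, NOD or WSB (highest 0.134, without NOD). Acvr2a, above background on 18 naive and 14 axotomy arrays, was 0.27 lower (SE 0.10, adjusted p 0.0222), a call lost with array weights (0.0668), with a block for runs of neighbouring table columns (0.0761) and without strain AJ (0.0984), C3H (0.0658) or DBA (0.0716). Neither gene was called in any single strain. Over strains the difference ran from -0.76 (AJ) to 0.24 (C57) for Acvr2a and from -0.29 (NOD) to 0.14 (CAST) for Acvr2b.

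Counted by strain, 6 of the 9 genes were called in C3H, CAST, DBA, NOD, NZO and WSB, where 24.2%, 27.9%, 30.2%, 22.4%, 24.6% and 35% of all probes were called. There were 5 in 129 (29.7%) and C57 (20.8%), and 4 in AJ (16.7%), the strain with the fewest arrays. The lower call was Fstl1 wherever there was one.

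**Figure D2:**
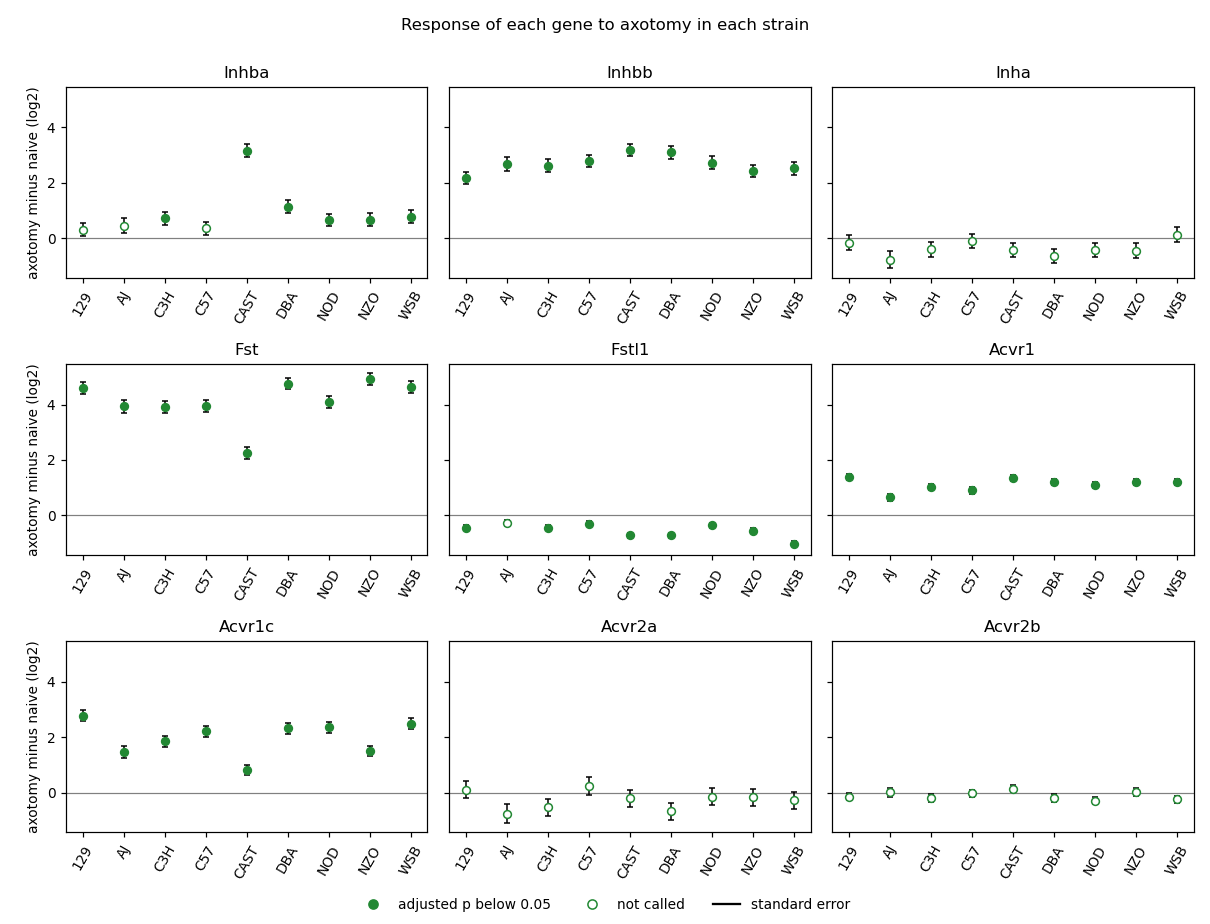
Difference between axotomy and naive samples (log2) for each gene in each strain, with bars for the standard error of the fit and filled points where the adjusted p-value was below 0.05. Inhba in CAST (3.15) is far above its other strains, whereas Fst (2.24) and Acvr1c (0.82) have their smallest rise there.

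Whether these responses differed among strains was tested with an F-test over the 9 strains. Of the 9 genes 5 were called, against 14.3% of all probes. These were Fst (adjusted p 1.93e-09), Inhba (2.12e-09), Acvr1c (3.14e-07), Fstl1 (5.19e-05) and Acvr1 (0.0153). The Acvr1 call was lost without AJ naive replicate 1 (0.0665). Without the CAST arrays, over the other 8 strains, the response of Inhba was no longer called (0.491), while the other 4 calls held. The naive level differed among strains for 5 genes, Fst (1.28e-10), Inhbb (1.06e-05), Inhba (0.0182), Acvr1c (0.0358) and Acvr2b (0.0385), against 56.3% of all probes. Without background correction the naive calls of Inhba (0.0919) and Acvr1c (0.292) were lost, and with median scaling that of Acvr2b (0.334). Without the CAST arrays those of Inhba (0.284) and Acvr2b (0.194) were lost. Inhba was also lost without CAST naive replicate 1 (0.0574) or 2 (0.13), Acvr1c without any one of 6 arrays (highest 0.14, without NZO naive replicate 1) and Acvr2b without any one of 10 (highest 0.0913, without C57 naive replicate 4). For the level after axotomy 8 of 9 genes were called, all but Acvr2a (0.753), against 60.3% of all probes, and without the CAST arrays Acvr2b was not called either (0.422).

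CAST was the strain with the most of these genes called against the others, and also the strain with the most of all probes called. This held for the response, the naive level and the level after axotomy. The CAST response was larger than the mean of the other 8 strains for Inhba, by 2.52 (95% interval 2.03 to 3.01, adjusted p 2.48e-12), and smaller for Fst, by -2.12 (-2.57 to -1.66, 6.73e-11), and Acvr1c, by -1.30 (-1.71 to -0.90, 2.04e-06). These 3 of 9 genes compare with 6.9% of all probes. The sizes for Inhba and Acvr1c depend on where background lies, since their probes were above background on 4 and 2 of 35 naive arrays. The intervals do not include that dependence. Each gene rests on 1 probe, and whether sequence differences between strains under a probe affect its signal was not tested. None of the 3 calls was lost under any alternative that was run. For Inhbb the difference was 0.55 (0.07 to 1.03) and did not pass (adjusted p 0.185), but it did without background correction (0.54, adjusted p 0.0348).

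The CAST difference in Inhba lay in the injured ganglia more than in the naive ones. After axotomy CAST was above the other strains by 3.15 for Inhba (2.80 to 3.50), 0.69 for Inhbb (0.35 to 1.03), 0.53 for Acvr2b and 0.36 for Acvr1. It was below them by -1.27 for Acvr1c, -0.84 for Inha, -0.56 for Fst and -0.17 for Fstl1, so 8 of 9 genes were called, against 44.6% of all probes. The Fst call was lost without CAST axotomy replicate 4 (adjusted p 0.0612). The Fstl1 call was lost without any one of CAST axotomy replicates 1 to 4 (0.0999, 0.0955, 0.0521 and 0.0756) and with median scaling (0.346). In naive ganglia 4 of 9 genes were called, against 43.3% of all probes, with Fst 1.55 higher (1.23 to 1.87), Inhba 0.63 higher, Acvr2b 0.26 higher and Inha lower (-0.76). The naive Inhba call was lost without CAST naive replicate 2 (0.0953), and that of Acvr2b without CAST naive replicate 1, 2 or 3 (0.0592, 0.109 and 0.0848) or with median scaling (0.124).

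**Figure D3:**
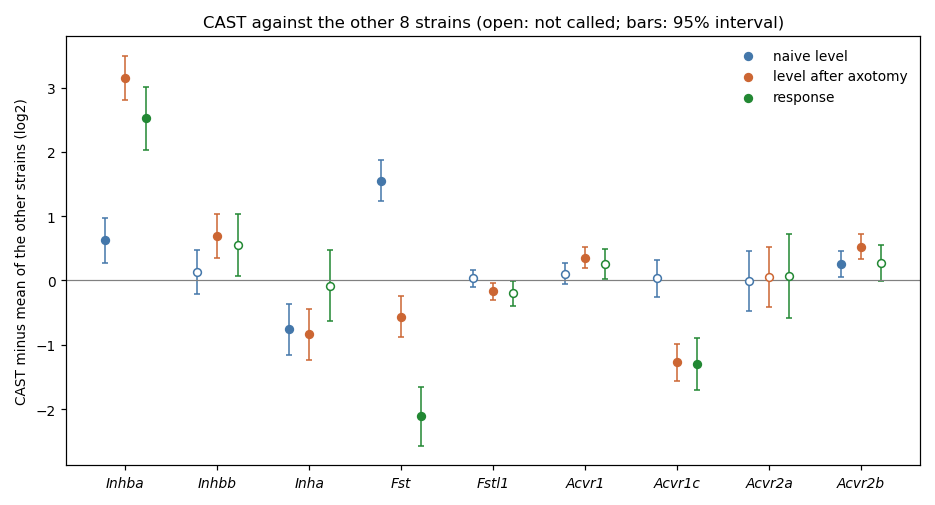
CAST minus the mean of the other 8 strains (log2) for each gene in naive samples, in axotomy samples and in the response, with bars for the 95% interval and open points where the difference was not called. Inhba is highest after axotomy (3.15), and Fst turns from 1.55 in naive to -0.56 in axotomy samples.

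Neighbouring columns of the deposited table resembled each other in runs of 8, and the CAST values were therefore also taken within runs. In the 4 runs with a CAST axotomy array, CAST minus the other strains was 3.52, 3.36, 2.50 and 2.97 for Inhba and -1.09, -0.30, -0.76 and -0.20 for Fst. In the 4 other runs, with a CAST naive array each, Fst was higher in CAST by 1.57, 1.52, 1.47 and 1.37. The direction held in each run, although a run held only 1 CAST array and between 1 and 6 arrays of other strains with the same treatment. Macrophage markers also differed in CAST, with larger responses for C1qa (0.89) and Aif1 (0.87) and a smaller one for Mrc1 (-0.92), 3 of 4 against 6.9% of all probes, and their summed level on the CAST axotomy arrays (5645 to 6841) lay within that of the other strains (3185 to 8000). The satellite glia marker Fabp7 had a smaller response in CAST (-1.47), 1 of 3, and the satellite glia sum was 808 to 1151 on CAST axotomy arrays against 975 to 2551 on the others. The sensory neuron markers were split in CAST after axotomy, with 2 of 7 higher and 2 lower, against 44.6% of all probes called. Scn10a (0.91) and Isl1 (0.34) were higher, and Nefh (-1.05) and Avil (-0.86) were lower. Their summed linear level, in which bright probes weigh most, was lower on the CAST axotomy arrays (75245 to 79038) than on the others (79827 to 97026). Of the fibroblast markers, Col1a2 (1.21, adjusted p 6.07e-08) and Col1a1 (0.46, 0.0011) were higher in CAST after axotomy, 2 of 4 against 44.6% of all probes, and the summed level there (32543 to 32881) lay within that of the other strains (14830 to 40376). The part of these cells in the CAST values was not tested.

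Other strains stood apart for fewer genes. The response of Acvr1c was 0.90 larger in 129 (adjusted p 0.00344), the 1 gene of 9 called there against 3.92% of all probes. In NZO the Fst response was 0.91 larger (0.0152, 1 of 9 against 1.99%), a call lost without NZO axotomy replicate 1 (0.105) or naive replicate 2 (0.124) and without the CAST arrays (0.165). In WSB the Fstl1 response was lower by -0.54 (6.9e-05, 1 of 9 against 5.67%). In AJ the Acvr1 response was lower by -0.52 (0.0328, 1 of 9 against 1.02%), a call lost without AJ axotomy replicate 2 (0.16) or 3 (0.141) or naive replicate 1 (0.373), and with median scaling (0.108). No response was called in C3H (0.982% of all probes), C57 (0.886%), DBA (2.14%) or NOD (0.721%). The Fst response was 0.72 larger in DBA (0.0817) and 0.59 larger in WSB (0.122), which did not pass. Both passed without background correction (0.51, adjusted p 0.00229, and 0.56, 2.87e-04) and with an offset of 50 (0.0266 and 0.0246). So did the Acvr1c response in WSB (0.58, 0.0805), at 0.24 (0.048) and 0.49 (0.0345). The 9 contrasts share arrays and are not independent of each other.

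Naive levels of Inhbb separated 3 strains from the mean of the others. It was higher in WSB by 0.87 (adjusted p 4.56e-05), the 1 gene of 9 called there against 21.9% of all probes. It was also higher in 129 by 0.51 (0.0263), where Fst was lower by -0.65 (0.00185), 2 of 9 against 16%. In C3H it was lower by -0.52 (0.0291, 1 of 9 against 13.8%). The Inhbb call in 129 was lost without naive replicate 1, 2 or 4 (0.152, 0.119 and 0.13) and that in C3H without naive replicate 2, 3 or 4 (0.0925, 0.12 and 0.122). Without background correction both Inhbb calls ended (0.26, adjusted p 0.16, and -0.24, 0.219), as they did with the authors' deposited values (0.163 and 0.223). So did the Fst call in 129 (-0.18, 0.105, and 0.108 with the deposited values), where 0 of 4 naive arrays had Fst above background. Acvr1c was called higher in naive NZO (0.57, 0.00213, 1 of 9 against 16.7%), but it was above background on 2 of 4 NZO arrays and on 0 of the other 31, so the size depends on the background. Acvr2b was lower by -0.28 in naive C57 (0.0379, 1 of 9 against 17.7%), a call lost without naive replicate 1, 2 or 4 (0.0599, 0.142 and 0.153), with median scaling (0.283) and without the CAST arrays (0.0853). In AJ, DBA and NOD no gene was called, against 13.1%, 12.6% and 18.2% of all probes.

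After axotomy WSB had 5 of 9 genes called against 24.6% of all probes. Inhbb (0.68), Inha (0.66), Fst (0.65) and Acvr1c (0.65) were higher there and Fstl1 was lower (-0.66), so Inhbb, Inha and Fst were all high in this strain. The Inha call was lost without WSB axotomy replicate 4 (adjusted p 0.0701). Inhba was lower in 129 (-0.83, with Acvr1c at 0.79, 2 of 9 against 26.9%), in C57 (-0.75) and in NZO (-0.71). These differences are against a mean that holds CAST. Without the CAST arrays they were -0.45 (adjusted p 0.039), -0.36 (0.152) and -0.32 (0.225), so the call held in 129 alone. Inhba was above background on 1, 1 and 2 of 4 arrays there, and outside CAST each pair of neighbours in the order after axotomy lay within the larger SD.

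C57 had 3 of 9 genes called after axotomy, against 17.2% of all probes, since Fst was also lower (-0.46) and Fstl1 higher (0.27). That Fst call was lost without axotomy replicate 1, 2 or 4 (0.141, 0.119 and 0.0697), and the Fstl1 call without replicate 2 (0.0767) and with median scaling (0.071). NZO had 2 of 9 against 17.4%, Fst being higher by 0.49, a call lost without axotomy replicate 1 (0.221) or 3 (0.0693) and without the CAST arrays (0.0659). AJ had 3 of 9 against 14.6%, with Fstl1 at 0.37, Acvr1 at -0.34 and Acvr1c at -0.71. Acvr1 was lost there without axotomy replicate 2 (0.0765) or 3 (0.054), and Acvr1c without replicate 3 (0.133), while the Fstl1 call ended with median scaling (0.25, adjusted p 0.129).

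DBA had 2 of 9 genes called after axotomy against 19% of all probes, Fst (0.50) and Acvr1c (0.45). The call of Fst was lost without axotomy replicate 2 (0.074) or 4 (0.0994), and that of Acvr1c without replicate 1 (0.0854) or 4 (0.0877), and both ended without the CAST arrays (0.0538 and 0.173). C3H had 2 of 9 against 16.3%, Inhbb at -0.59 and Fstl1 at 0.19. The Inhbb call there was lost without axotomy replicate 2 (0.311) and the Fstl1 call without any one of 32 arrays (highest 0.335, without axotomy replicate 1), with median scaling (0.434) and without the CAST arrays (0.102). No gene was called in NOD, against 15.7% of all probes.

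The balance of ligand to follistatin was followed on each array as the log2 level of Inhba or Inhbb minus that of Fst. Because 2 probes are not on one scale, only changes of this difference and its differences between strains are read. It is a score over genes chosen with earlier results known, so it is described without a test. An SE of its change comes from the SDs of the 2 groups compared and not from the fit. The balance moved from ligand towards follistatin after axotomy in 8 strains and not in CAST. Its sizes depend on where background lies, since no naive array had Inhba above background in 129, C57, DBA, NOD, NZO or WSB, and none had Fst above background in 129. Without background correction the mean change of Inhba minus Fst over the 9 strains was -2.03 in place of -3.21.

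For Inhba minus Fst the change was -4.30 in 129, -4.26 in NZO, -3.88 in WSB, -3.63 in DBA, -3.59 in C57, -3.48 in AJ, -3.44 in NOD and -3.19 in C3H. In each of these 8 strains every axotomy array lay below every naive array. In CAST the naive arrays lay between -2.56 and -0.79 and the axotomy arrays between -1.23 and 0.18, which overlap, and the change was 0.92 (SE 0.48). The mean change was -3.72 over the other 8 strains, and CAST differed from it by 4.64. After axotomy alone, the balance in CAST was 3.71 above that of the other strains, and 1.94 above without background correction, and its 4 arrays stood clear of the other 31, which lay between -5.59 and -3.33. Among those, Inhba was above background after axotomy on 1 of 4 arrays in 129 and in C57 and on 2 of 4 in NZO. In naive ganglia the CAST balance was lower instead, by -0.93, with overlapping arrays. Without background correction the CAST change was 0.01, and the difference of CAST from the other strains in the change was 2.31.

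For Inhbb minus Fst the change was -2.51 in NZO, -2.45 in 129, -2.13 in WSB, -1.66 in DBA, -1.37 in NOD, -1.28 in C3H, -1.26 in AJ and -1.17 in C57, again without overlap of naive and axotomy arrays in each of them. In CAST it was 0.94 (SE 0.32), with naive arrays from -0.26 to 0.68 and axotomy arrays from 0.51 to 1.49. The other 8 strains changed by -1.73 in the mean, 2.67 below CAST. After axotomy the balance in CAST was 1.25 above them, or 2.38-fold. The ranges overlapped, since the other 31 arrays reached 0.61 and the lowest CAST array stood at 0.51. Naive CAST was lower than the other strains by -1.42 here, where naive Fst was higher. Within the 4 runs with a CAST axotomy array, CAST minus the other strains was 3.17 to 4.61 for Inhba minus Fst and 0.78 to 1.62 for Inhbb minus Fst.

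**Figure D4:**
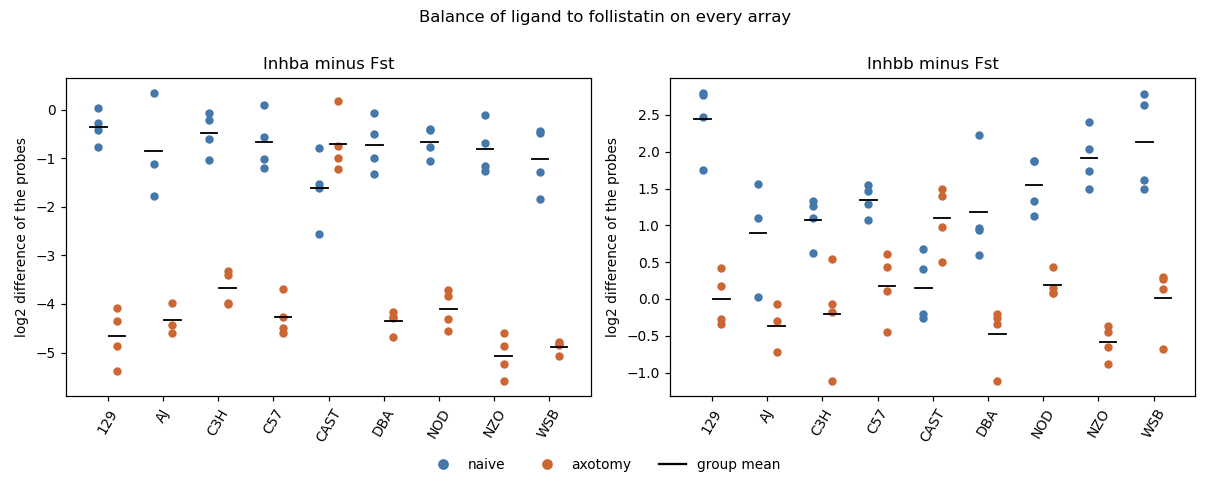
Log2 level of Inhba (left) or Inhbb (right) minus that of Fst on every array, by strain, with naive samples in blue, axotomy samples in orange and black lines for group means. In 8 strains all axotomy arrays lie below the naive ones, while in CAST the change is 0.92 for Inhba and 0.94 for Inhbb and the 2 groups overlap.

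Genes that act around these 9 were read from a list of 20 further members of the pathway, of which 9 were measured. In the mean response 5 were higher and 0 lower, against 26.4% and 33% of all probes, with a median of 0.21 against -0.04 for all probes. The signal-carrying Smad2 (0.31) and the shared partner Smad4 (0.22) were higher, as were Tgfbr3 (0.22), a co-receptor that presents inhibin and TGF-beta, and Pmepa1 (0.23), an inhibitor of Smad signalling. Smurf2 (0.21), a ubiquitin ligase that marks receptors and Smads for breakdown, was the fifth. Smad3 was at -0.03 (adjusted p 0.759). The F-test called none of the 9 for a response that varied among strains (14.3% of all probes), and none was called for a CAST response that differed from the rest (6.9%). After axotomy 5 of the 9 were called for their level in CAST, against 44.6% of all probes, with Pmepa1 (0.72), Smurf2 (0.52), Smad3 (0.47) and Smad2 (0.20) higher and Tgfbr3 (-0.19) lower. The probe of Acvr1b, the type 1 receptor that activin A mainly uses, was not kept.

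Genes known to be raised by Smad signalling in other cells were read from a list of 8, of which 7 were measured, 5 higher and 0 lower (median 0.49), against 26.4% and 33% of all probes. Tgif1 (1.78), a repressor of TGF-beta responses, Cdkn1a (1.74), a cell cycle inhibitor that is also induced by many stresses, and Tgfbi (1.48), a matrix protein, rose most, with Skil at 0.49 and Cdkn2b at 0.44. Ccn2 stood at -0.04 (adjusted p 0.692) and Bhlhe40 at -0.06 (0.558). In CAST the response was larger than in the other strains for Bhlhe40 (0.76), Skil (0.48) and Tgfbi (0.43), 3 of 7 against 6.9% of all probes, while after axotomy the level in CAST was higher for Bhlhe40 (1.07) and lower for Skil (-0.75), Tgfbi (-0.39) and Cdkn1a (-0.30), 4 of 7 against 44.6%. Many signals other than activin act on these genes.

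**Figure D5:**
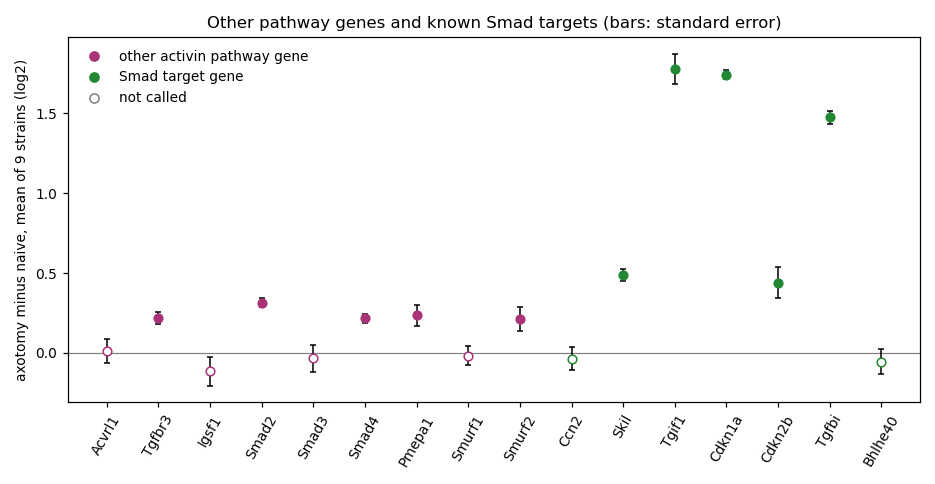
Mean difference between axotomy and naive samples over the 9 strains (log2) for other measured genes of the activin pathway and for known Smad target genes, with bars for the standard error and open points where the difference was not called. Tgif1, Cdkn1a and Tgfbi lie between 1.48 and 1.78, and the called pathway genes between 0.21 and 0.31.

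The genes whose pattern over the 18 group means was most like that of 4 members were named by Pearson correlation, as a description over means that share arrays, strains and injury. For Inhba these were Scimp (0.974), Erfe (0.968) and Bcl2a1c (0.956), all with their own rise in CAST (1.40, 2.25 and 2.47) above their mean rise (0.37, 0.55 and 0.50). The Inhba mean was 9.27 in axotomized CAST and at most 6.57 in any other group, so this choice by correlation itself favours genes with a large rise in CAST. For Inhbb they were Gadd45a (0.978), Gadd45g (0.976) and Eef1b2 (0.976), whose rise in CAST was close to their mean rise (2.90 against 2.88, 2.54 against 2.50 and 0.78 against 0.80). For Fst they were Jpt1 (0.984), Grb10 (0.982) and Slc6a4 (0.982), with rises in CAST of 1.42, 0.70 and 5.30 against mean rises of 1.63, 0.93 and 5.68. For Acvr1c they were 5031410I06Rik (0.984), Tspan17 (0.968) and Slc15a3 (0.967), with rises in CAST of 0.55, 0.23 and 2.06 against mean rises of 2.72, 0.44 and 3.37.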

How the data were processed

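Dorsal root ganglion RNA of 70 labelled samples (18 groups) was measured on Illumina arrays. The authors deposited an intensity per probe on a linear scale, neither background-subtracted nor normalized as far as the values show, with a detection p-value beside each, per the file headers. They also deposited log2 values, which equal the log2 of quantile-normalized intensities within 0.027. The sources used here do not name the software. Another 4 columns (2 arrays) match no labelled sample and entered no step.

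Gene names came from the platform annotation, in which 23978 of 25697 probes had 1 gene symbol, 0 had several and the rest had none. From the detection p-values a background was estimated and subtracted from the intensities, 16 was added, and the arrays were quantile-normalized before taking log2 (limma 3.58.1, R 4.3.3). Correction stretches differences of dim probes. A probe was kept with a detection p below 0.05 on at least 3 arrays. limma fitted 1 mean per group with a variance trend (residual degrees of freedom 52, prior 8.91), and p-values were adjusted by Benjamini-Hochberg. The fit was tested on simulated data. Where a probe was below background throughout a group, only a bound can be given, and "at least" folds set the brighter group's mean against, per array, the higher of the lowest signal above background and the probe's own value. Alternatives were the deposited log2 values, no background correction, median scaling, an offset of 50, other filters, 1 probe per gene, array weights, blocks for replicate number and for runs of neighbouring columns, each strain alone, and leaving out strains, arrays or, chosen after seeing the data, 2 runs or all CAST arrays.

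The 9 genes and all gene lists were chosen with earlier results of these data known. Every one of the 9 genes was read in each comparison. Genes that were not called are mostly left unnamed where a strain is compared with the others, and not every strain value is printed. The text also names up to 4 genes per other list with the smallest adjusted p, and the 3 genes most like each of Inhba, Inhbb, Fst and Acvr1c. Further list members were named after their values were seen.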

Additional observations from a re-analysis of the deposited data

Results flagged for a closer look

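In 7 of 144 groups of 4 arrays tested over the 9 genes, and in 2 of 32 for the balance, 1 array stood far from the other 3, by Dixon's ratio of its gap to the group's range and its 95% critical value. Chance alone gives about 1 such group in 20. They were Acvr1 in 129 after axotomy (ratio 0.932, 1 array at 11.10 with the nearest at 10.86), Inhbb in naive 129 (0.891, 7.58 against 8.38), Acvr2b in naive NZO (0.865, 10.03 against 9.79) and Inhba in naive DBA (0.863, 5.74 against 5.37). The ratio was 0.854 for Acvr1c in naive C3H (5.05 against 5.36), 0.845 for Inhbb in naive WSB (8.28 against 8.60) and 0.839 for Fstl1 in NZO after axotomy (13.70 against 13.55). For Inhbb minus Fst it was 0.843 in DBA (-1.12 against -0.34) and 0.835 in WSB (-0.68 against 0.14), both after axotomy.

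The response to axotomy differed among strains by the F-test (limma, Benjamini-Hochberg) for Fst (adjusted p 1.93e-09), Inhba (2.12e-09), Acvr1c (3.14e-07), Fstl1 (5.19e-05) and Acvr1 (0.0153). Without the CAST arrays the Inhba call ended (0.491) and the other 4 held. For Inhba, CAST was the strain with the largest response, and for Fst and Acvr1c it was the one with the smallest.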

How the results depend on the processing

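Of 235 results on the 9 genes, 184 kept their side of the threshold under every alternative and 0 called results reversed. With the authors' deposited values, without background correction, without a filter, without 2 runs and without the CAST arrays, 3 of the 9 genes in place of 5 differed in naive level among strains, and 3 to 6 did when single arrays were left out. Uncorrected values gave smaller balances by construction, since background compresses dim probes. With the deposited values, Inhba minus Fst changed by -2.02 in the mean, CAST differed from the other strains by 2.29 in the change and by 1.93 after axotomy, and for Inhbb minus Fst the mean change and the CAST difference were -0.51 and 1.54. Without background correction these were -2.03, 2.31, 1.94, -0.52 and 1.55. An offset of 50 gave 3.99 for the CAST difference in the change of Inhba minus Fst. Median scaling called 1660 probes in place of 2520 as differing in response among strains, for which the cause was not tested, and it ended 9 calls on the 9 genes. These were Fstl1 after axotomy in AJ (adjusted p 0.129), C3H (0.434), C57 (0.071) and CAST (0.346), naive Acvr2b over the strains (0.334), in C57 (0.283) and in CAST (0.124), the Acvr1 response in AJ (0.108) and the Inhba response in NZO (0.0951). Same-numbered samples did not deviate together (34 pairs, 10 with r over 0.1, range -0.19 to 0.39), so numbers were not taken to pair samples. The replicate block by number ended the calls of the Acvr1 response in AJ (adjusted p 0.0518) and of Fstl1 in C3H after axotomy (0.0526) and no other. Leaving out 2 runs ended 8 calls and gained 5. The lost ones were Acvr2a in the mean (0.372), Inhba in C3H (0.218), naive Inhba in CAST (0.147) and over the strains (0.104), naive Acvr1c over the strains (0.0817), naive Acvr2b in CAST (0.329), and the responses of Fst in NZO (0.12) and Acvr1 in AJ (0.141). The gained ones were the Inhbb response over the strains (0.00952), in 129 (0.00917) and in DBA (0.0417), the Fst response in WSB (0.0457) and the Inha response in AJ (0.00607). Leaving out the CAST arrays ended 12 calls, each given beside its result, among them the strain difference in the Inhba response (0.491).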
